A study of Homo sapiens with 12 samples.

Results

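The MAX network is a family of helix-loop-helix transcription factors built around MAX, and it is described here by the transcripts of 10 of its genes, chosen by symbol: MYC, MYCL, MAX, MXD1, MXD3, MXD4, MXI1, MNT, MLX and MGA. All 10 were among the 30017 symbols of the count table, and all 10 passed the filter on low counts that left 16010 symbols. The cells are titled THP-1, an established human monocytic leukaemia line. The 4 groups of 3 libraries were IRAK4 knockout cells treated with CC-885, IRAK4 knockout cells given DMSO, wild-type cells treated with CC-885 and wild-type cells given DMSO. CC-885 was given at 50 nM for 12 h. It binds cereblon, the part of a ubiquitin ligase that picks substrates, and thereby leads to the degradation of GSPT1, a factor that ends translation. All cells, controls included, had been electroporated with Cas9 and grown from single cells, and the knockout cells also received a guide RNA against IRAK4, a kinase that innate immune receptors signal through. The number of clones per genotype is not stated, nor whether replicates are separate cultures. Genotype and clone therefore cannot be told apart, and p-values measure only the spread between these libraries, which may be technical.

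MYC binds DNA as a heterodimer with MAX and activates genes of growth, nucleotide synthesis and ribosome production. MXD1, MXD3, MXD4, MXI1 (also called MXD2) and MNT compete for MAX and for the same E-box sequences, and recruit the SIN3 and histone deacetylase corepressor. In myeloid cells MYC is known to fall and MXD1 to rise as cells stop dividing. MLX is the MAX-like partner of the glucose-sensing factors MLXIP (MondoA) and MLXIPL (ChREBP), and it also binds MXD1, MXD4 and MNT. MGA pairs with MAX in a repressive Polycomb complex named PRC1.6.

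The libraries held 46903984 to 56675539 counts, with 18709 to 19219 symbols detected in each. IRAK4 averaged 30.7 ± 1.05 CPM (counts per 1000000 counts of a library, scaled by TMM factors) in knockout cells under CC-885 and 8.26 ± 0.847 CPM in knockout cells under DMSO, against wild-type values of 72.8 ± 9.53 CPM under CC-885 and 52.2 ± 1.57 CPM under DMSO (SD, n = 3 each). GSPT1 transcripts stood at 298 ± 2.29 CPM under CC-885 and 180 ± 9.65 CPM under DMSO in knockout, and at 253 ± 6.02 CPM under CC-885 and 223 ± 8.58 CPM under DMSO in wild type. The marker values that follow, LYZ included, are counts per 1000000 of the library total without TMM factors. Monocytic markers summed to 1510 to 1590 CPM under CC-885 and 2630 to 3590 CPM under DMSO in knockout, and to 1910 to 1990 CPM under CC-885 and 2240 to 2310 CPM under DMSO in wild type. The means of 9 of the 11 monocytic markers were lower under CC-885 than under DMSO in each genotype, and those of CD14 and PTPRC were higher. LYZ averaged 387 CPM under CC-885 and 1760 CPM under DMSO in knockout, and 681 CPM under CC-885 and 992 CPM under DMSO in wild type. T and NK cell markers summed to 8.37 to 9.13 CPM under CC-885 and 18.5 to 22 CPM under DMSO in knockout, and to 4.62 to 6.39 CPM under CC-885 and 7.85 to 11.6 CPM under DMSO in wild type. B cell markers summed to 1.75 to 1.98 CPM under CC-885 and 3.34 to 3.99 CPM under DMSO in knockout, and to 6.37 to 7.08 CPM under CC-885 and 8.0 to 8.61 CPM under DMSO in wild type. Erythroid markers summed to 0.0176 to 0.673 CPM over all libraries. Of the T and NK, B and erythroid markers, 3 of 11, 2 of 6 and 2 of 6 were at 0 in every library. The epithelial, stromal and endothelial sum was 92.5 to 99.0 CPM in knockout cells under CC-885, 413 to 460 CPM in knockout cells under DMSO, 101 to 115 CPM in wild-type cells under CC-885 and 268 to 303 CPM in wild-type cells under DMSO. Nearly all of it was PECAM1, which monocytes also carry, and 4 of its 11 markers, KRT19, COL1A2, COL3A1 and CDH5, were at 0 throughout. The part of these sums in the results was not tested. Wild-type CC-885 replicate 3 stood apart in a chi-square of counts divided by its degrees of freedom. The values were 76.1 and 62.3 against the other replicates of its group, and 5.05 between those. Replicate 3 is also the only library of that group with the prefix 52 in its library name. The members' called values that use it are also given without it.

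CC-885 moved the activator and an antagonist in opposite directions: MYC fell and MXD1 rose in both genotypes. In knockout cells 10 of 10 members passed the test, 4 higher and 6 lower, where 78.9% of all genes tested passed, 38.9% higher and 40.0% lower. In wild-type cells 9 of 10 passed, 3 higher and 6 lower, where 72.3% of all genes passed, 35.7% higher and 36.6% lower. With so large a share of genes moving, these counts do not set the network apart, and the sizes and directions of single members carry the description. A gene passed at a Benjamini-Hochberg adjusted p under 0.05 from edgeR's quasi-likelihood test over all 16010 genes. The groups did not overlap for 10 members in knockout cells, where 81.9% of genes did not overlap, and for 9 in wild-type cells, where 73.8% did not. The 9 members that passed in both genotypes went the same way in both.

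**Figure D1:**
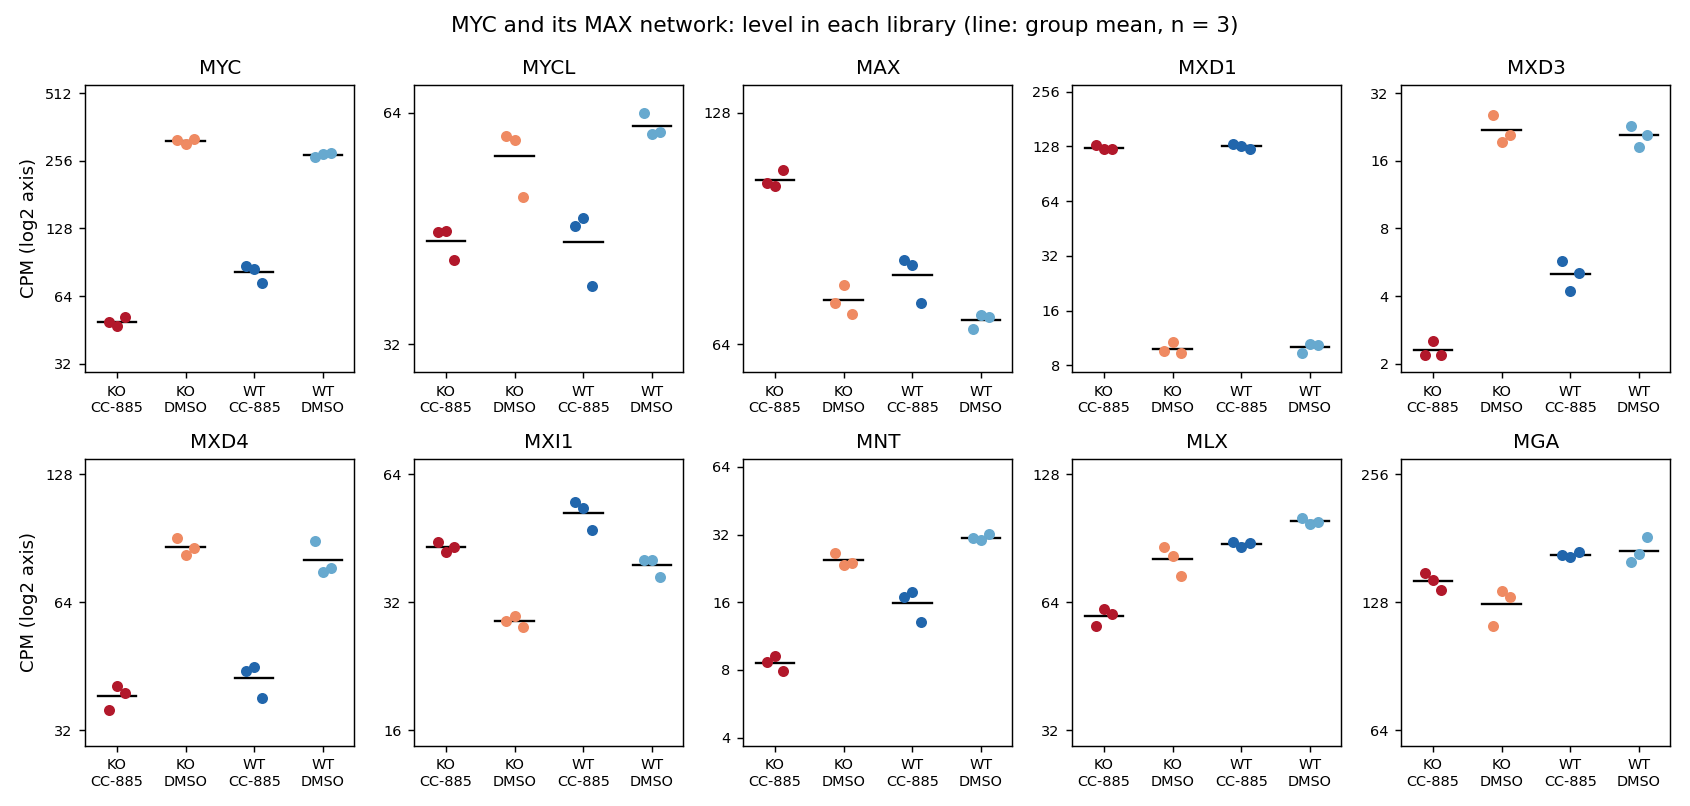
Level of each of the 10 genes in every library, in CPM on a log2 axis, by group (KO, IRAK4 knockout; WT, wild type; lines are means of 3 libraries). MYC is lower and MXD1 higher under CC-885 in both genotypes, and MYC under CC-885 is lower in knockout (49.3 CPM) than in wild type (81.6 CPM) while MXD1 stands at about the same level (126 and 128 CPM).

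MYC, the activator of the network (chr8:127735434-127741434, plus strand, build GRCh38 as for the positions that follow), was measured at 49.1, 47.1 and 51.7 CPM in the knockout libraries under CC-885, against 318, 305 and 321 CPM in the knockout libraries under DMSO. Wild-type libraries held 87.0, 84.5 and 73.2 CPM under CC-885, against 267, 275 and 277 CPM under DMSO. Every CC-885 library lay below every DMSO library, and the knockout libraries lay below the wild-type libraries under CC-885 and above them under DMSO. The fall was 6.38-fold in knockout (log2 fold change -2.67 ± 0.068 SE, adjusted p = 9.12e-15) and 3.35-fold in wild type (-1.74 ± 0.066, adjusted p = 1.53e-12). It ranked 370th in knockout and 449th in wild type by size among the genes that were lower. Without replicate 3 of wild type under CC-885, the wild-type response of MYC was -1.67. In bulk RNA, fewer cells that make a transcript and less of it per cell cannot be told apart, and protein was not analysed here.

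MYCL (chr1:39895426-39902256, minus strand), the MYC paralogue known best from lung cancer, fell by much less. It measured 44.8, 44.9 and 41.2 CPM in knockout under CC-885, against 59.7, 59.1 and 49.7 CPM in knockout under DMSO. The wild-type values were 45.6, 46.7 and 38.1 CPM under CC-885, against 63.9, 60.1 and 60.5 CPM under DMSO. The groups did not overlap within a genotype, and the log2 fold changes were -0.37 ± 0.086 in knockout (adjusted p = 0.00104) and -0.50 ± 0.086 in wild type (adjusted p = 6.98e-05). Replicate 3 of wild type under CC-885 was the lowest library of that group, and the wild-type response was -0.41 without it. MYCN, the other paralogue, had no count in any library, where 3 counts would have been the limit that a count of 0 allows.

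MAX (chr14:65006174-65102695, minus strand), the shared partner, rose with CC-885. It measured 104, 103 and 108 CPM in knockout under CC-885, against 72.3, 76.4 and 70.1 CPM in knockout under DMSO. Wild-type cells gave 82.4, 81.1 and 72.3 CPM under CC-885, against 67, 70.0 and 69.4 CPM under DMSO. The knockout libraries under CC-885 stood above all the others. The log2 fold change was 0.52 ± 0.061 in knockout (adjusted p = 8.60e-07) and 0.19 ± 0.061 in wild type (adjusted p = 0.0103). The wild-type rise was 0.25 without replicate 3 of wild type under CC-885, and it did not pass under 4 other settings (adjusted p of 0.0506 to 0.106).

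The antagonists did not move together. MXD1 (chr2:69897688-69942945, plus strand), the antagonist known from cells that stop dividing, measured 130, 124 and 124 CPM in knockout under CC-885, against 9.65, 10.7 and 9.39 CPM in knockout under DMSO. Wild-type libraries held 132, 129 and 124 CPM under CC-885, against 9.34, 10.5 and 10.4 CPM under DMSO. The treatments were far apart, and the genotypes overlapped within each treatment. The rise was 12.7-fold in both (log2 fold change 3.66 ± 0.072, adjusted p = 7.18e-16 in knockout; 3.67 ± 0.072, adjusted p = 1.20e-15 in wild type), and it ranked 270th in knockout and 212th in wild type among the genes that were higher. Replicate 3 of wild type under CC-885 lay with its group here (3.69 without it).

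MXD3 (chr5:177301461-177312757, minus strand), an antagonist known from proliferating cells, went the other way. It measured 2.19, 2.53 and 2.19 CPM in knockout under CC-885 (122, 121 and 104 reads counted), against 25.4, 19.3 and 20.7 CPM in knockout under DMSO. The wild-type values were 5.76, 4.20 and 5.08 CPM under CC-885, against 22.9, 18.5 and 20.8 CPM under DMSO. The treatments did not overlap, and the fall was 9.49-fold in knockout (log2 fold change -3.25 ± 0.143, adjusted p = 3.98e-12) and 4.13-fold in wild type (-2.05 ± 0.131, adjusted p = 7.61e-10). Exons of MXD3 share 538 bases with PRELID1 on the opposite strand, and the strand setting of the counting is not given in the sources used here, so reads in that stretch cannot be assigned with certainty. PRELID1 averaged 142 CPM in knockout under CC-885 to 267 CPM in wild type under DMSO, far above MXD3 in every group. It fell by 0.76 and 0.72 on the log2 scale in knockout and wild type. The part of PRELID1 reads in the MXD3 counts was not tested.

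MXD4 (chr4:2247432-2262294, minus strand), the antagonist with the highest level per length under DMSO, fell in both genotypes. It measured 35.8, 40.7 and 39.2 CPM in knockout under CC-885, against 90.6, 82.6 and 85.6 CPM in knockout under DMSO. Wild-type cells gave 44.0, 45.2 and 38.2 CPM under CC-885, against 89.2, 75.4 and 77.2 CPM under DMSO. All CC-885 libraries lay below all DMSO libraries, and the log2 fold changes were -1.16 ± 0.083 in knockout (adjusted p = 1.66e-09) and -0.92 ± 0.082 in wild type (adjusted p = 4.07e-08).

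MXI1 (chr10:110207605-110287365, plus strand), which like MXD1 is known from differentiating cells, rose. It measured 44.3, 41.9 and 43.2 CPM in knockout under CC-885, against 28.9, 29.7 and 27.9 CPM in knockout under DMSO. Wild-type libraries held 55.0, 53.4 and 47.2 CPM under CC-885, against 40.3, 40.3 and 36.6 CPM under DMSO. Within each genotype the treatments did not overlap. The log2 fold change was 0.58 ± 0.071 in knockout (adjusted p = 1.36e-06) and 0.41 ± 0.070 in wild type (adjusted p = 7.23e-05).

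MNT (chr17:2384060-2401118, minus strand), the antagonist that most cell types express, fell. It measured 8.65, 9.23 and 7.90 CPM in knockout under CC-885, against 26.6, 23.3 and 24.0 CPM in knockout under DMSO. The wild-type values were 16.8, 17.7 and 13.1 CPM under CC-885, against 30.7, 30.2 and 32.0 CPM under DMSO. The 4 groups did not overlap with each other. The log2 fold changes were -1.52 ± 0.105 in knockout (adjusted p = 1.21e-09) and -0.96 ± 0.101 in wild type (adjusted p = 3.21e-07), and the wild-type value was -0.84 without replicate 3 of wild type under CC-885. Without that library the wild-type responses of MXD3, MXD4 and MXI1 were -2.06, -0.85 and 0.47.

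MLX and MGA, the members outside the MYC and MXD arms, had small responses in both genotypes. MLX (chr17:42567068-42573239, plus strand) measured 56.2, 61.8 and 60.2 CPM in knockout under CC-885, against 86.1, 82.3 and 73.7 CPM in knockout under DMSO. Wild-type cells gave 88.7, 86.4 and 88.2 CPM under CC-885, against 101, 97.8 and 98.8 CPM under DMSO. It fell by 0.44 ± 0.063 in knockout (adjusted p = 7.77e-06) and by 0.18 ± 0.062 in wild type (adjusted p = 0.0193) on the log2 scale, and the wild-type call was lost under 4 settings (adjusted p of 0.051 to 0.061). Without replicate 3 of wild type under CC-885 the wild-type responses of MLX and MGA were -0.18 and -0.04. MLX exons share 710 bases with PSMC3IP on the opposite strand, which averaged 9.96 to 12.7 CPM over the groups. MGA (chr15:41621224-41773081, plus strand) measured 150, 144 and 137 CPM in knockout under CC-885, against 113, 136 and 132 CPM in knockout under DMSO. In wild type MGA measured 165, 164 and 168 CPM under CC-885, against 160, 166 and 182 CPM under DMSO. The wild-type groups overlapped, with a log2 fold change of -0.03 and a 95% interval of -0.18 to 0.12 (adjusted p = 0.709). The MGA rise in knockout was 0.18 ± 0.071 (adjusted p = 0.0298) and did not pass under 6 settings, among them upper-quartile scaling (0.03, adjusted p = 0.662) and leaving out replicate 1 of knockout under DMSO (0.11, adjusted p = 0.142).

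**Figure D2:**
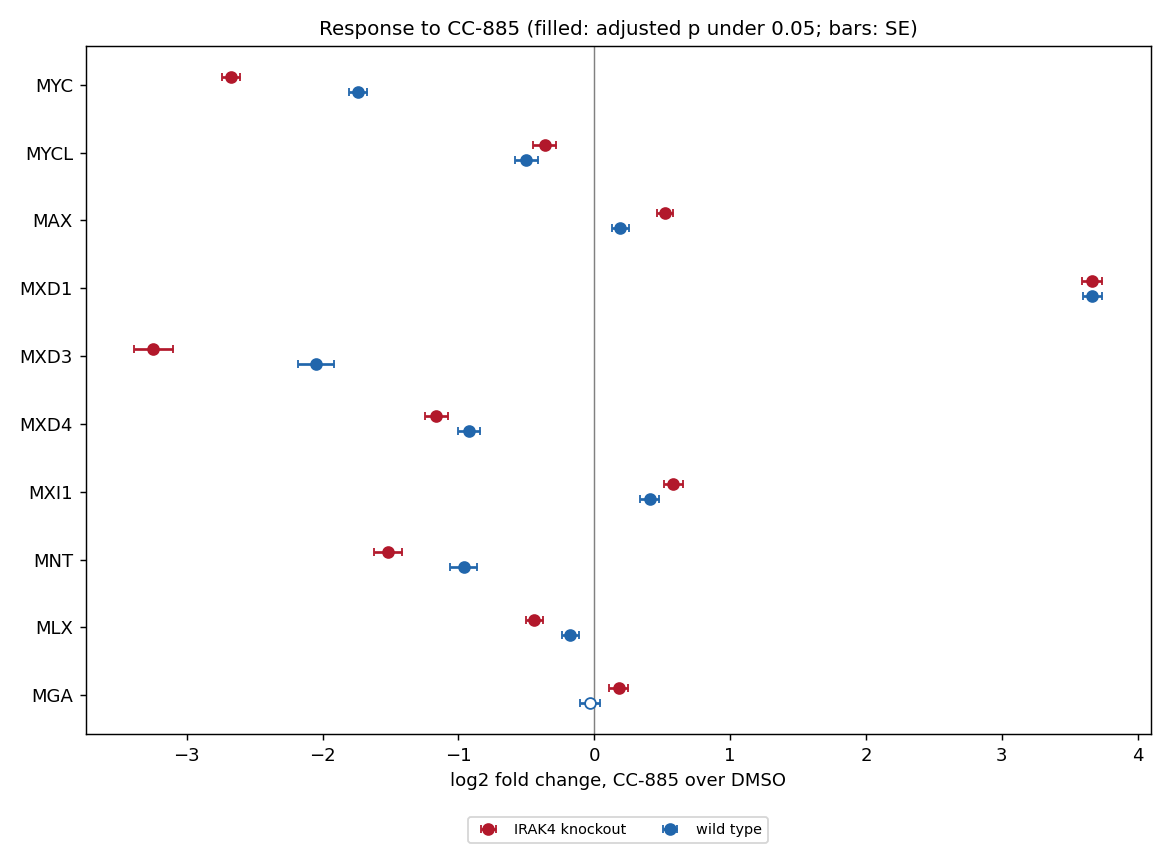
Log2 fold change of CC-885 over DMSO in IRAK4 knockout (red) and wild type (blue) for the 10 genes, with SE bars; filled points passed the test. MXD1 lies at 3.66 and 3.67 and MYC at -2.67 and -1.74, while MGA in wild type (-0.03) is the open point.

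The balance of the network is easier to read from levels per length, for which CPM was divided by the length of the merged exons of each gene in GENCODE 29 (CPM per kb); the authors' own annotation is not given in the sources used here. Under DMSO, MYC had the highest level of the 10 genes, 105 ± 2.82 CPM per kb in knockout and 90.9 ± 1.75 CPM per kb in wild type, and no library of MLX, the next gene, reached it. MXD1 had the lowest, 1.76 ± 0.123 CPM per kb in knockout and 1.79 ± 0.112 CPM per kb in wild type. Under CC-885 the order in knockout was MAX at 25.5 ± 0.655 CPM per kb, then MLX at 22.9 ± 1.12, MXD1 at 22.4 ± 0.620 and MYC at 16.4 ± 0.765, with only MLX and MXD1 overlapping among these neighbours. The lower part of that order was MXI1, MXD4, MGA, MYCL, MNT and MXD3, in which MXD4 overlapped MGA and MGA overlapped MYCL. In wild type under CC-885 the order was MLX at 33.9 ± 0.458 CPM per kb, MYC at 27.2 ± 2.45, MXD1 at 22.8 ± 0.741 and MAX at 19.2 ± 1.34, with no overlap between these neighbours, followed by MXI1, MGA, MXD4, MYCL, MNT and MXD3. MGA overlapped MXD4 there, and MXD4 overlapped MYCL. In both DMSO groups the order below MYC was MLX, MXD4, MAX, MYCL, MGA, MXI1, MXD3, MNT and MXD1, with an overlap between MXI1 and MXD3 in knockout and between MXD3 and MNT in wild type.

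With TMM scaling, the summed level of the MXD factors and MNT was slightly higher under CC-885, and its make-up differed far more than the sum. The lowest CC-885 library stood just above the highest DMSO library, at 44.6 against 44.2 CPM per kb in knockout and 47.2 against 46.7 in wild type. Upper-quartile scaling moved the median CC-885 response of all genes from -0.033 to -0.18 in knockout and from -0.034 to -0.104 in wild type. The sum with that scaling is not given here, so its small rise may depend on the scaling. The sum was 45.0 ± 0.367 CPM per kb in knockout under CC-885, against 41.7 ± 2.21 CPM per kb in knockout under DMSO. In wild type it was 50.8 ± 3.09 CPM per kb under CC-885, against 43.8 ± 2.53 CPM per kb under DMSO. Replicate 3 of wild type under CC-885 had the lowest sum of its group (47.2 CPM per kb). Without it the wild-type CC-885 mean of the sum was 52.5 CPM per kb, the share of MXD1 44.1% and the ratio of MYC to the sum 0.544. MXD1 made up 49.8% ± 1.1 of the sum in knockout under CC-885, against 4.24% ± 0.45 under DMSO, and 45.0% ± 1.41 in wild type under CC-885, against 4.11% ± 0.478 under DMSO. MXD4 made up 21.1% and 20.6% under CC-885 in knockout and wild type, against 51.0% and 45.3% under DMSO. The share of MXD3 was 1.55% in knockout under CC-885, against 15.8% under DMSO, and 3.01% in wild type under CC-885, against 14.4% under DMSO. MXI1 and MNT stood at 23.7% and 3.82% in knockout under CC-885, against 17.1% and 11.8% in knockout under DMSO. In wild type MXI1 and MNT stood at 25.2% and 6.25% under CC-885, against 22.1% and 14.2% under DMSO.

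MYC per kb was 0.365 ± 0.0194 times that sum in knockout under CC-885 (0.348 to 0.386), against 2.51 ± 0.115 times in knockout under DMSO (2.39 to 2.62). In wild type it was 0.535 ± 0.0161 times the sum under CC-885 (0.517 to 0.547), against 2.08 ± 0.154 times under DMSO (1.90 to 2.18). No groups overlapped in this ratio. Against MXD1 alone, MYC stood at 0.733 ± 0.0425 times its level in knockout under CC-885 and 59.6 ± 5.58 times under DMSO, and at 1.19 ± 0.0712 times in wild type under CC-885 and 50.8 ± 2.32 times under DMSO. Against MAX the ratio was 0.643 ± 0.0144 in knockout under CC-885 and 5.90 ± 0.409 under DMSO, and 1.42 ± 0.0303 in wild type under CC-885 and 5.42 ± 0.0419 under DMSO. These ratios are a description with no test, since they combine genes whose own tests are given above. With the length of the longest transcript in place of the merged exons, an alternative chosen after seeing the data, MYC over the sum was 0.441 under CC-885 and 2.90 under DMSO in knockout, and 0.641 under CC-885 and 2.40 under DMSO in wild type.

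**Figure D3:**
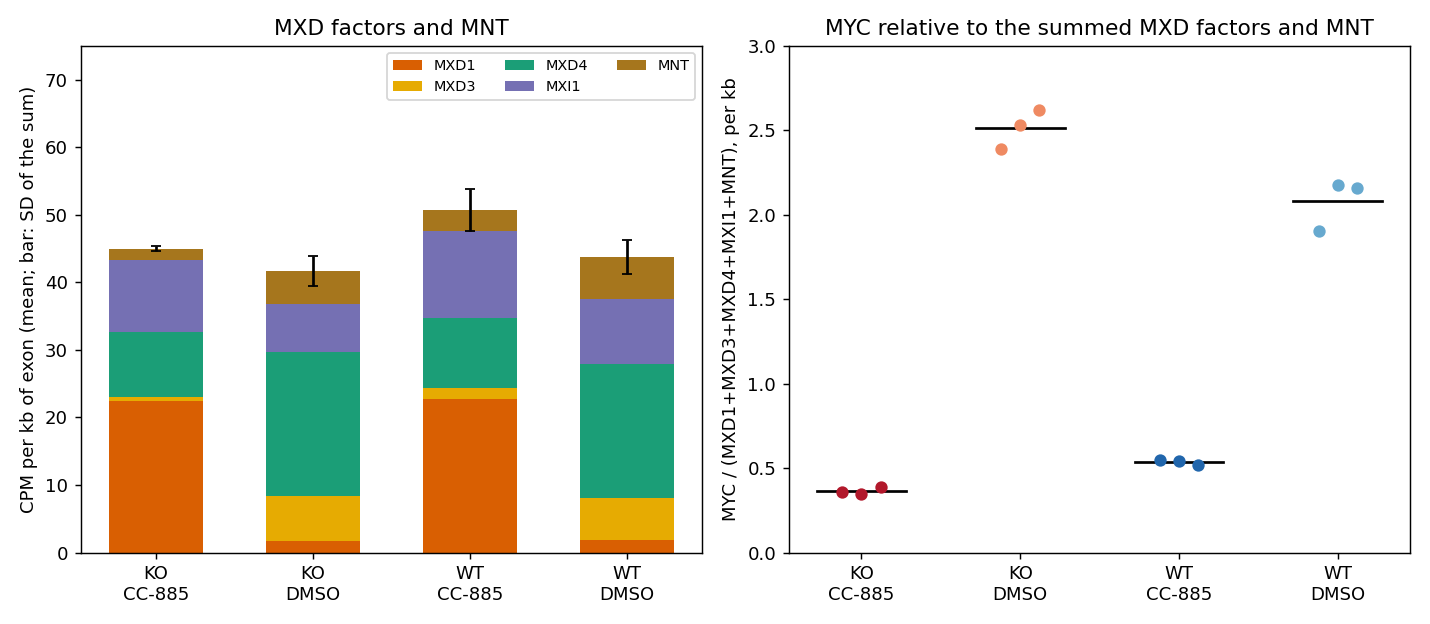
Left, the MXD factors and MNT stacked as mean CPM per kb of exon by group, with the SD of the sum. Right, the ratio of MYC to that sum in each library (lines are means of 3 libraries). The sums lie between 41.7 and 50.8 CPM per kb while the share of MXD1 is 4.11% to 4.24% under DMSO and 45.0% to 49.8% under CC-885, and the ratio of MYC to the sum lies below 1 in every CC-885 library.

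Promoter sequence was compared because the MXD factors parted in direction and the network's own binding sequence, the E-box CACGTG, can be looked for in their promoters. RefSeq promoter windows (GRCh38.p14, the 250 bases before a listed start) were at hand for 9 of the 10 genes, in 14 windows. The gene without a window was MYC, so its promoter was not searched. CACGTG, a palindrome read the same on both strands, was found in the windows of 3 genes, MXD4, MNT and MLX, and in 6.34% of 35116 windows (7.73% of 27305 genes) overall. Those 3 genes were lower under CC-885 in both genotypes, and the windows of MXD1, MXI1 and MAX, which were higher, held no CACGTG. The variant CACGCG, also searched on both strands, was found in MGA alone (9.72% of all windows). TGANTCA, the AP-1 sequence, was found in MXD3 alone (6.57% of all windows), and TGACGTCA, the CRE sequence, in none of the 9 (1.65% of all windows), both searched on both strands. The 4 windows below show MXD1, the member that rose most and has no E-box in this stretch, and the 3 with the E-box, each written 5′ to 3′ on the strand of the gene and ending at the base before the start, with CACGTG in capitals. In all 4 the RefSeq start lies inside the gene as GENCODE 29 bounds it, downstream of its first annotated base.
MXD1, chr2:69914859-69915108, plus strand: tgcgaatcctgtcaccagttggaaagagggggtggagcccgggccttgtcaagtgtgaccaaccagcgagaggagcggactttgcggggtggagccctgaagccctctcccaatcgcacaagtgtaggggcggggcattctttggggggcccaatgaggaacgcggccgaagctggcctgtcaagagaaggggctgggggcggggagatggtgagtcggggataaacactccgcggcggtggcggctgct
MXD4, chr4:2262110-2262359, minus strand: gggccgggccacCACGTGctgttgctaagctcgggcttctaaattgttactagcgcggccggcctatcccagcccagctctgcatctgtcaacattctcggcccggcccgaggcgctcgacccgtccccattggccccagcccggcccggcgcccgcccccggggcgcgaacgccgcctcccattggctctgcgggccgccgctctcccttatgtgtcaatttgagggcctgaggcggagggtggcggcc
MNT, chr17:2401061-2401310, minus strand: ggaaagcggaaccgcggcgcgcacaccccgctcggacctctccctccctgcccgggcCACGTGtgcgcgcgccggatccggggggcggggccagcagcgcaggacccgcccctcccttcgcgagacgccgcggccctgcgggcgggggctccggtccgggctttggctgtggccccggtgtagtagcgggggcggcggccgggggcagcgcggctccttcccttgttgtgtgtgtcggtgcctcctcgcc
MLX, chr17:42566850-42567099, plus strand: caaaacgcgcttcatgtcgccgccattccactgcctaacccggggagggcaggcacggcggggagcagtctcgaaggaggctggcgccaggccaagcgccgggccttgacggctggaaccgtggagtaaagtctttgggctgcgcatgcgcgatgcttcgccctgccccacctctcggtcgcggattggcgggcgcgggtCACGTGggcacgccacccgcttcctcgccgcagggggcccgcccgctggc
The centre of the E-box lies 235 bases before the start in MXD4, 190 bases before it in MNT and 47 bases before it in MLX. A match is a description of these letters and not evidence of binding, and MYCL and MXD3 fell with no CACGTG in their windows.

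Between the genotypes, MYC, MXD3 and MNT were lower in knockout under CC-885 while MXD1 did not pass. Under CC-885, 7 of 10 members passed the test of knockout against wild type, 1 higher and 6 lower, where 58.6% of all genes passed, 27.8% higher and 30.8% lower. Under DMSO, 5 of 10 passed, 1 higher and 4 lower, where 49.7% of all genes passed, 21.3% higher and 28.4% lower. The groups did not overlap for 7 members under each treatment, where 63.1% of genes under CC-885 and 59.8% under DMSO did not. Both counts lie near the share of all genes. MYC in knockout was lower than in wild type under CC-885 (log2 fold change -0.73 ± 0.065, adjusted p = 1.30e-07) and slightly higher under DMSO (0.20 ± 0.064, adjusted p = 0.0143). The call under DMSO was lost with a block by the number in the library name (0.21, adjusted p = 0.0717). Without replicate 3 of wild type under CC-885 the difference under CC-885 was -0.80 for MYC, 0.36 for MAX, -1.12 for MXD3, -0.33 for MXI1, -1.01 for MNT, -0.56 for MLX and -0.20 for MGA. MAX was higher in knockout under CC-885 (0.41 ± 0.061, adjusted p = 2.85e-05) and was not called under DMSO (0.08, 95% interval -0.05 to 0.22), where it passed with upper-quartile scaling (0.21, adjusted p = 0.0171). MXD3 was lower in knockout under CC-885 (-1.13 ± 0.147, adjusted p = 8.16e-06) and was not called under DMSO (0.07, interval -0.18 to 0.33).

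MNT, MLX, MXI1 and MGA were lower in knockout under both treatments. The log2 fold changes of knockout over wild type were -0.89 ± 0.106 under CC-885 and -0.33 ± 0.0996 under DMSO for MNT, and -0.56 ± 0.063 and -0.30 ± 0.063 for MLX. For MGA they were -0.21 ± 0.071 under CC-885 and -0.42 ± 0.071 under DMSO. For MXI1 they were -0.27 ± 0.070 under CC-885 and -0.44 ± 0.071 under DMSO. MXI1 lies on chromosome 10, where the median of 510 genes in the same comparisons was -0.91 under CC-885 and -0.99 under DMSO, and the part of its chromosome in the MXI1 value was not tested. The medians of the chromosomes of the other members lay between -0.29 (chromosome 5, MXD3) and 0.06 (chromosome 15, MGA) under DMSO. The MNT call under DMSO was lost with upper-quartile scaling (-0.21, adjusted p = 0.125) and without replicate 2 of knockout under DMSO (-0.29, adjusted p = 0.0556), and the MGA call under CC-885 was lost without replicate 2 (adjusted p = 0.0516) or replicate 3 (adjusted p = 0.0938) of knockout under CC-885 and with upper-quartile scaling (-0.16, adjusted p = 0.0528).

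MXD1, MYCL and MXD4 did not pass under either treatment. The interval of the MXD1 difference was -0.16 to 0.11 on the log2 scale under CC-885 and -0.17 to 0.13 under DMSO. For MYCL it was -0.18 to 0.19 under CC-885 and -0.31 to 0.05 under DMSO, and for MXD4 it was -0.31 to 0.04 and -0.07 to 0.27. MXD4 under CC-885 passed without replicate 3 of wild type under CC-885 (-0.21, adjusted p = 0.0219) and with the library-name prefix as a covariate (-0.19, adjusted p = 0.0275). With that covariate MYCL passed under DMSO (-0.20, adjusted p = 0.0118), and with upper-quartile scaling MXD4 passed under DMSO (0.22, adjusted p = 0.0498). Within prefix 51 the MXD4 difference under CC-885 was -0.21. The prefix is uneven over the groups: every knockout library under CC-885 has prefix 51, and of wild type under DMSO only replicate 1 has it.

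**Figure D4:**
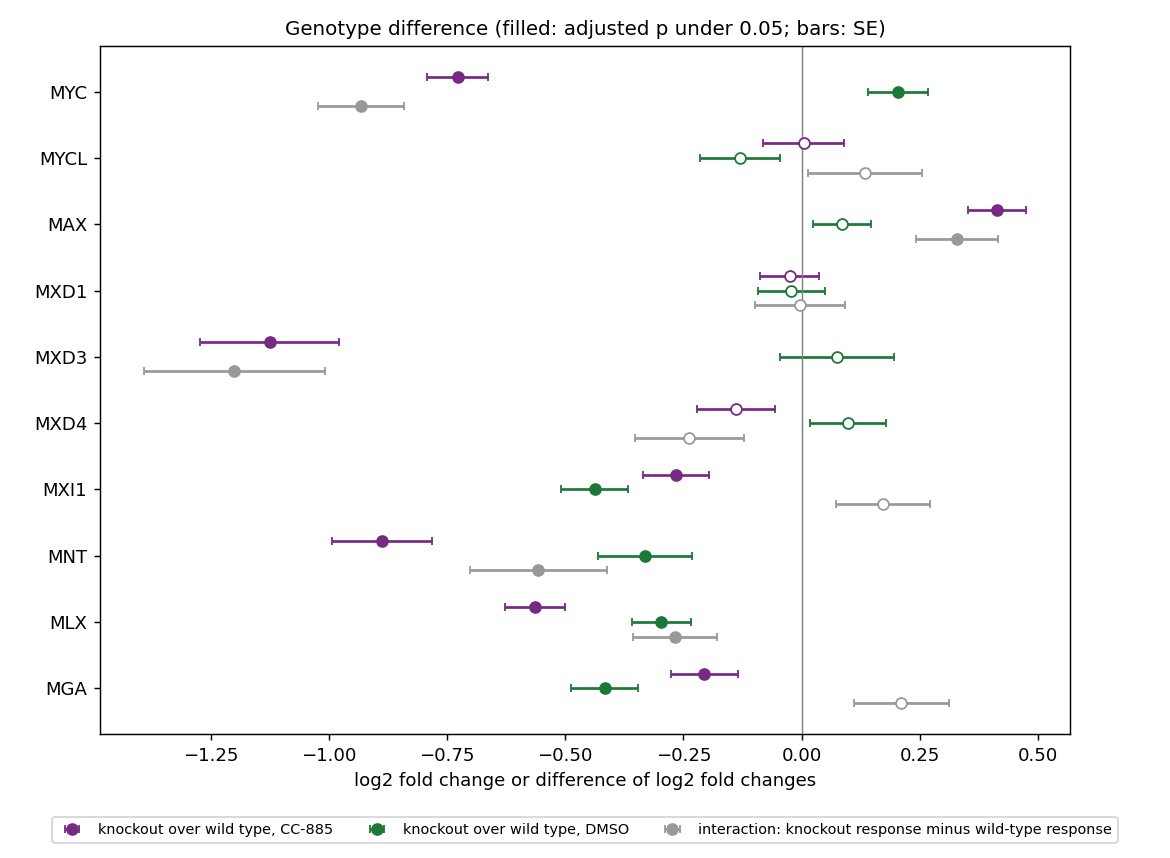
Log2 fold change of knockout over wild type under CC-885 (purple) and DMSO (green), and the difference between the responses to CC-885 in knockout and in wild type (grey), with SE bars; filled points passed the test. MYC lies at -0.73 under CC-885 and 0.20 under DMSO, and all 3 points of MXD1 lie within 0.03 of 0.

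The interaction asks whether the response to CC-885 differed between the genotypes, and it is the knockout response minus the wild-type response. It passed for 5 of 10 members, 1 higher and 4 lower, where 34.7% of all genes passed, 17.9% higher and 16.8% lower. MYC fell further in knockout, by 0.93 ± 0.091 on the log2 scale (adjusted p = 3.24e-06), and the difference was -1.0 without replicate 3 of wild type under CC-885. MXD3 fell further by 1.20 ± 0.191 (adjusted p = 0.000207), where PRELID1, which overlaps it, gave -0.04 (adjusted p = 0.798). MNT fell further by 0.56 ± 0.145 (adjusted p = 0.00741) and MLX by 0.27 ± 0.089 (adjusted p = 0.0287). MAX rose further by 0.33 ± 0.087 (adjusted p = 0.00799). Without replicate 3 of wild type under CC-885 the difference was -1.19 for MXD3, -0.68 for MNT, -0.26 for MLX and 0.27 for MAX. The MAX difference did not pass under 3 other settings and the MLX difference under 7. MXD1 gave -0.003 with an interval of -0.20 to 0.20 (adjusted p = 0.986). MXD4 was not called (-0.24, adjusted p = 0.125) and passed without replicate 3 of wild type under CC-885 (-0.31, adjusted p = 0.0181), without replicate 1 of wild type under DMSO (-0.32, adjusted p = 0.0438) and with no filter (-0.32, adjusted p = 0.0406). MYCL (0.13, adjusted p = 0.422), MXI1 (0.17, adjusted p = 0.199) and MGA (0.21, adjusted p = 0.119) were not called.

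Genes that MYC is known to activate were mostly lower under CC-885. Of 29 tested, 3 rose and 25 fell in knockout (median log2 fold change -0.91), and 4 rose and 24 fell in wild type (-0.82). Among all genes tested, 38.9% rose and 40.0% fell in knockout, and 35.7% rose and 36.6% fell in wild type (medians -0.03 and -0.03). The sliding clamp of DNA replication, PCNA, averaged 10.3 CPM in knockout under CC-885 against 106 CPM under DMSO (-3.36 ± 0.089), and 25.4 CPM in wild type under CC-885 against 114 CPM under DMSO (-2.16 ± 0.083). Prothymosin alpha, PTMA, fell by 2.20 ± 0.073 in knockout. CAD, the enzyme that starts pyrimidine synthesis, had a log2 fold change of -1.96 ± 0.084 there. In wild type the catalytic telomerase subunit TERT fell by 1.51 ± 0.16 and the folate enzyme SHMT1 by 1.39 ± 0.082. Not every target followed: ODC1, the first enzyme of polyamine synthesis and a classic MYC target, rose by 1.09 ± 0.050 in knockout and 0.63 ± 0.050 in wild type, and the splicing regulator PTBP1 rose by 0.91 ± 0.053 and 0.49 ± 0.052. These were picked after their values were seen. The interaction passed for 2 higher and 13 lower of the 29 (median -0.24), where 17.9% of all genes were higher and 16.8% lower (median -0.01). Among the 13 were PCNA at -1.20 ± 0.12, PTMA at -0.96 ± 0.098 and the RNA-binding protein HNRNPA1 at -0.86 ± 0.087. The part of MYC in the levels of these targets was not tested.

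Genes that MYC is known to repress were mostly higher. Of 11 tested, 7 rose and 4 fell in knockout (median 1.48), and 7 rose and 2 fell in wild type (1.15). Among all genes tested, 38.9% rose and 40.0% fell in knockout, and 35.7% rose and 36.6% fell in wild type (medians -0.03 and -0.03). The 4 of 11 that fell in knockout lie near that share. DDIT3, a transcription factor of the stress response, averaged 520 CPM in knockout under CC-885 against 22 CPM under DMSO (4.56 ± 0.10), and 588 CPM in wild type under CC-885 against 17.5 CPM under DMSO (5.07 ± 0.11). The cell cycle inhibitor CDKN1A rose by 3.42 ± 0.14 in knockout and 3.87 ± 0.14 in wild type, and the quiescence factor KLF2 by 3.79 ± 0.16 and 2.79 ± 0.15. DDIT3 and CDKN1A are also known as genes that stress pathways switch on, and the part of MYC in their levels was not tested. GADD45A, a stress gene of the same list, had the largest interaction of the list, -1.19 ± 0.098 (adjusted p = 7.16e-07). It averaged 71.6 CPM in knockout under CC-885 against 45.4 CPM under DMSO, and 63.0 CPM in wild type under CC-885 against 17.5 CPM under DMSO.

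Of the 12 genes of the corepressor that MXD factors recruit, 7 rose and 5 fell in each genotype (median 0.71 in knockout and 0.27 in wild type). Over all genes 38.9% rose and 40.0% fell in knockout, and 35.7% rose and 36.6% fell in wild type, so genes moved in both directions there too. The SIN3-associated scaffold ARID4B rose by 2.15 ± 0.076 in knockout and 1.83 ± 0.075 in wild type, and SAP30 by 1.84 ± 0.099 and 1.27 ± 0.10. The deacetylase HDAC1 fell by 1.23 ± 0.087 and 1.11 ± 0.087, and the histone chaperone RBBP4 by 1.73 ± 0.057 and 1.10 ± 0.056. In the PRC1.6 complex of MGA, 6 of 10 genes rose and 4 fell in knockout (median 0.61), and 5 rose and 4 fell in wild type (0.28). RYBP, a subunit of Polycomb complexes, rose by 2.90 ± 0.090 in knockout and 2.28 ± 0.088 in wild type, and the ubiquitin ligase RNF2 by 2.11 ± 0.10 and 1.63 ± 0.10. YAF2, the paralogue of RYBP, rose by 2.02 ± 0.12 in knockout and 1.13 ± 0.11 in wild type. It averaged 19.7 CPM in knockout under CC-885 against 4.87 CPM under DMSO, and 30.0 CPM in wild type under CC-885 against 13.7 CPM under DMSO. Other subunits fell: WDR5, a histone-binding scaffold, by 1.46 ± 0.060 in knockout and 1.21 ± 0.060 in wild type, and the heterochromatin protein CBX3 by 1.5 ± 0.14 and 0.79 ± 0.14. TFDP1, the dimer partner of E2F factors, fell by 1.22 ± 0.060 and 1.15 ± 0.060; CBX3 and TFDP1 were picked after their values were seen.

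In the MLX arm, both targets of MondoA on the list were higher. TXNIP, a thioredoxin inhibitor that restrains glucose uptake, averaged 3810 CPM in knockout under CC-885 against 557 CPM under DMSO (2.77 ± 0.074), and 2510 CPM in wild type under CC-885 against 369 CPM under DMSO (2.76 ± 0.074). Its paralogue ARRDC4 rose by 1.90 ± 0.10 in knockout and 2.24 ± 0.11 in wild type. Both were also higher in knockout than in wild type, TXNIP by 0.60 under CC-885 and 0.59 under DMSO, and ARRDC4 by 1.64 and 1.98, and neither interaction passed (adjusted p of 0.94 and 0.0802). MLXIP itself rose by 0.60 ± 0.083 in knockout and 0.36 ± 0.083 in wild type. MLXIPL averaged 1.06 to 1.99 CPM over the groups and was not called for CC-885 in either genotype.

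Of 11 regulators of the MYC transcript, 7 rose and 3 fell with CC-885 in knockout (median 0.46), and 5 rose and 3 fell in wild type (0.16), where 78.9% of all genes passed in knockout and 72.3% in wild type. The long noncoding RNA PVT1, the neighbour of MYC on chromosome 8, averaged 22.5 CPM in knockout under CC-885 against 10.1 CPM under DMSO (1.15 ± 0.11, adjusted p = 9.19e-08). In wild type it averaged 13.4 CPM under CC-885 against 12.0 CPM under DMSO (0.16, adjusted p = 0.208), and the interaction was 0.99 ± 0.16 (adjusted p = 0.000222). The highest mean of PVT1 and the lowest of MYC were in the same group. The RNA-binding protein ELAVL1, which binds AU-rich transcripts, fell by 1.01 ± 0.061 in knockout and 1.18 ± 0.061 in wild type, and IGF2BP2, a reader of methylated RNA, rose by 0.87 ± 0.055 and 0.65 ± 0.055. The interaction passed for 6 of 11, all with the more positive response to CC-885 in knockout, where 17.9% of all genes had a higher interaction.

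**Figure D5:**
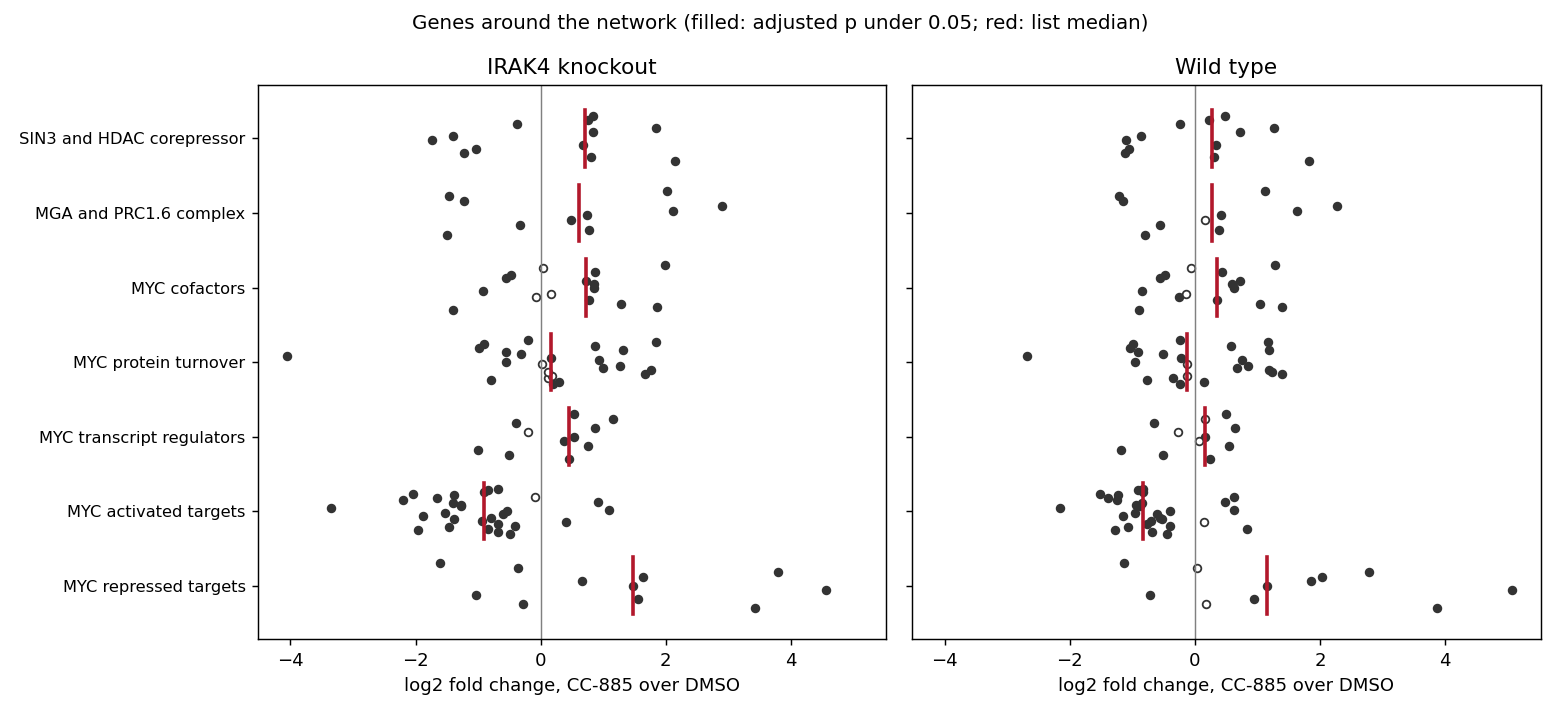
Log2 fold change of CC-885 over DMSO for the genes of 7 lists around the network, in knockout (left) and wild type (right), on a shared axis; filled points passed the test and red lines are list medians. The activated targets of MYC centre on -0.91 and -0.82, and the repressed targets on 1.48 and 1.15.

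Between the genotypes, the activated targets were mostly lower in knockout, 23 lower and 1 higher of 29 under CC-885 (median -0.55) and 18 lower and 1 higher under DMSO (-0.29), where the medians of all genes were -0.02 and -0.06. Under DMSO the log2 fold change was -0.94 ± 0.063 for the mitochondrial peroxidase PRDX3, -1.25 ± 0.16 for the mitochondrial transcription factor TFAM and -1.33 ± 0.16 for TERT. PRDX3 and TFAM lie on chromosome 10, with the median of -0.99 given above, and 19 genes within 5 Mb of TERT had a median of -1.36. The part of these neighbourhoods in the counts was not tested. Over all genes, 27.8% were higher and 30.8% lower in knockout under CC-885, and 21.3% were higher and 28.4% lower under DMSO, and several of the counts that follow lie near these shares. Of the 11 repressed targets, 2 were higher and 4 lower in knockout under CC-885 (median 0.05), and 6 were higher and 3 lower under DMSO (0.33). Of the 12 corepressor genes, 4 were higher and 4 lower under CC-885, and 2 were higher and 5 lower under DMSO. Of the 10 PRC1.6 genes, 4 were higher and 5 lower under CC-885, and 0 were higher and 3 lower under DMSO. Those 3 were PCGF6 on chromosome 10 (-1.78), YAF2 on chromosome 12 (-1.49) and WDR5 on chromosome 9 (-0.19). Genes within 5 Mb of them had medians of -1.03, -1.27 and -0.13, and the part of these neighbourhoods was not tested. Of the 11 transcript regulators, 4 were higher and 4 lower under CC-885, and 1 was higher and 9 lower under DMSO. TIAL1 (-0.91 under DMSO) is the only gene of that list on chromosome 10, and 35 genes within 5 Mb of it had a median of -1.0.

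Over the 12 libraries, the genes whose log2 CPM followed MYC most closely among 10433 ranked were GM2A (Pearson r = 0.9986), SCARB1, PTPN18, KCNAB2 and NCAPD3, and those that ran opposite were THAP1 (r = -0.9986), KANSL1L, ZNF266, ZBTB43 and RRN3P2. GM2A, a lysosomal lipid-binding protein, averaged 13.2 CPM under CC-885 and 103 CPM under DMSO in knockout, and 23.7 CPM under CC-885 and 92.0 CPM under DMSO in wild type. Its 4 group means have the order of those of MYC. The genes closest to MXD1 were ATF3 (r = 0.9993), a stress-induced factor, with ZNF697, NFIL3, FBXO34 and DUSP1, and the most opposite were LRG1 (r = -0.998), SDF2L1, TMUB1, CES2 and FUT7. ATF3 averaged 630 CPM in knockout under CC-885 against 1.89 CPM under DMSO, and 657 CPM in wild type under CC-885 against 1.90 CPM under DMSO. Among the members, MXD3 (r = 0.99), MXD4 (0.98) and MNT (0.94) followed MYC, MXD1 (-0.97) and MAX (-0.85) ran opposite, and MGA stood near 0 (-0.17). The libraries fall into 4 groups, so these values mostly restate the order of the group means, and no p is given.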

How the data were processed

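PolyA RNA of 12 libraries was sequenced as paired-end reads after preparation with a TruSeq kit, per the labels' protocols. The deposited table holds raw read counts per gene symbol that the authors made. The submitters' processing notes list FastQC 0.11.2, HISAT2 2.0.5, featureCounts 1.5.2 and the human build GRCh38, while the extraction protocol names a mouse build; the symbols are human, and the handling of strand and of reads with several matches is not given in the sources used here. From the counts, symbols were filtered with filterByExpr by group (16010 of 30017 kept, 99.98% of counts), scaled by TMM factors and fitted with edgeR 4.0.16 (quasi-likelihood, robust, R 4.3.3), 1 coefficient per group and all 12 libraries in the fit. There were 5 contrasts, adjusted by Benjamini-Hochberg over all genes (common dispersion equal to a biological coefficient of variation of 0.0899). Standard errors come from the F statistic and intervals from its t quantile at 95%, with 15.4 degrees of freedom for the members. The fit was checked on simulated counts in which most genes did not change. That check does not cover data in which most genes move, such as CC-885 in knockout, where 78.9% passed. Library totals were 46903984 to 56675539, which gave every member at least 104 counts in every library. Whether the replicate numbers in the titles pair libraries is not stated. Deviations of same-numbered libraries correlated by -0.034 to 0.232, which cannot settle it. Alternatives were other scalings, filters, DESeq2 1.42.0, blocks, library-name prefixes and leaving out each library.

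The 10 members and all gene lists were chosen with earlier results of these data known. All members are named whatever their values; each list names the 3 called genes with the largest change and a mean of at least 5 CPM in the higher group, and lists of 3 or fewer are named whole. Likeness covers tested genes of at least 5 CPM. Gene positions and lengths come from GENCODE 29 on GRCh38, and promoter windows from RefSeq (GRCh38.p14). Levels per kb with the longest transcript were an alternative chosen after seeing the data. Of the lists' genes, 5 did not pass the filter and 1 was not matched by symbol. The values of 1 gene of the lists are not reported here.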

Additional observations from a re-analysis of the deposited data

Results flagged for a closer look

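The response to CC-885 differed between the genotypes, by the interaction in edgeR's fit over all genes, for 5 of the 10 members. The difference is given as the knockout response minus the wild-type response on the log2 scale.

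For MYC it was -0.93 (responses of -2.67 in knockout and -1.74 in wild type), with all 3 knockout libraries below all 3 wild-type libraries under CC-885. For MXD3 it was -1.20 (-3.25 and -2.05), and for MNT -0.56 (-1.52 and -0.96). For MLX it was -0.27 (-0.44 and -0.18), and for MAX 0.33 (0.52 and 0.19). In all 5 the response was the larger in knockout. The share of all genes that passed this test was 34.7%, and the knockout cannot be told apart from differences between clones.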

How the results depend on the processing

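Of the members' 50 values, 50 kept their direction and their side of the threshold with DESeq2 size factors, with the DESeq2 test, with a filter of 1 CPM in 3 libraries and with a replicate block by title number. With that replicate block the interaction of MYC was -0.93 (adjusted p = 6.62e-06) and that of MLX -0.27 (adjusted p = 0.0414). Whether the title numbers pair the samples is not stated. Same-numbered libraries of different groups correlated in their deviations by -0.034 to 0.232, over 0.1 in 2 of 18 pairs. Those 2 joined wild type under CC-885 to knockout under DMSO, for replicates 1 (0.21) and 3 (0.232), which also share name prefix and library number. With 3 libraries per group, such values cannot settle whether samples were paired. A block by the number in the library name ended 4 calls, among them MYC in knockout against wild type under DMSO (0.21, adjusted p = 0.0717), which left 0 members higher there in place of 1. Upper-quartile scaling moved the median of all genes to -0.18 for CC-885 in knockout, against -0.033 with TMM; it ended 5 calls and added 2, giving 3 members higher in knockout under DMSO. The count of members with a higher interaction was 1 and became 0 with upper-quartile scaling and with no filter, where the interaction of MAX was 0.25 and 0.25 (adjusted p of 0.0511 and 0.0574). Within libraries of name prefix 51, which leave 1 library of wild type under DMSO, the interaction of MAX was 0.21 and was not called.

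Leaving out each library in turn, the members called ranged over 3 to 4 higher and 6 lower for CC-885 in knockout, 2 to 3 higher and 5 to 6 lower for CC-885 in wild type, 1 higher and 5 to 7 lower for knockout under CC-885, 1 higher and 3 to 4 lower for knockout under DMSO, and 1 higher and 3 to 5 lower for the interaction. The interaction of MLX lost its call without replicates 2 or 3 of wild type under DMSO, 1 of wild type under CC-885, 1 or 2 of knockout under DMSO and 1 of knockout under CC-885 (-0.22 to -0.26, adjusted p of 0.0523 to 0.0826). The causes were not tested. No member reversed a call in any setting, and the CC-885 responses of MYC, MXD1, MXD3, MXD4, MXI1 and MNT passed in every setting run. Levels rest on 104 to 122 reads for MXD3 in knockout under CC-885, the fewest of any member.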

Other observations

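Partners of the MYC protein and genes of its turnover moved in both directions with CC-885, for which 78.9% of all genes passed in knockout and 72.3% in wild type. Of 15 tested cofactors, 8 rose and 4 fell with CC-885 in knockout (median log2 fold change 0.72) and 8 rose and 5 fell in wild type (0.36). ZBTB17 (MIZ1), through which MYC represses genes, rose by 1.98 ± 0.074 in knockout and 1.29 ± 0.072 in wild type, with an interaction of 0.70 ± 0.10 (adjusted p = 9.44e-05). ACTL6A, an actin-like subunit of chromatin remodellers, fell by 1.40 ± 0.068 and 0.89 ± 0.067. In knockout against wild type, 6 cofactors were higher and 4 lower under CC-885, and 0 were higher and 7 lower under DMSO.

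Of 23 tested genes of MYC protein turnover, 11 rose and 8 fell in knockout (median 0.17) and 10 rose and 11 fell in wild type (-0.12). SKP2, an F-box protein of a ubiquitin ligase that acts on MYC and on cell cycle inhibitors, averaged 3.80 CPM in knockout under CC-885 against 63.7 CPM under DMSO (-4.06 ± 0.089), and 20.9 CPM in wild type under CC-885 against 134 CPM under DMSO (-2.68 ± 0.078). SKP2 was lower in knockout than in wild type under both treatments (-2.46 under CC-885 and -1.07 under DMSO), and 36 genes within 5 Mb of it had medians of -1.26 and -1.23. FBXW7, the F-box protein that marks phosphorylated MYC for degradation, rose by 1.76 ± 0.085 in knockout and 1.19 ± 0.084 in wild type. USP36, a nucleolar enzyme that removes ubiquitin from MYC, rose by 1.85 ± 0.069 and 1.17 ± 0.067. In knockout against wild type, 11 turnover genes were higher and 4 lower under CC-885, and 6 were higher and 8 lower under DMSO, where 58.6% of all genes passed under CC-885 and 49.7% under DMSO.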
